A study of Mus musculus with 6 samples.

Results

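Smooth muscle and pericyte genes were examined in RNA sequencing libraries of mouse soft palate, the muscular rear portion of the roof of the mouth. The set holds 10 genes chosen by name, of 21938 genes in the deposited table, and all 10 were found there. The 6 contractile genes are Acta2, Tagln, Myh11, Cnn1, Myl9 and Myocd, and the 4 pericyte genes are Rgs5, Cspg4, Abcc9 and Kcnj8. The tissue was taken at E14.0 (embryonic day) from 3 control and 3 mutant libraries. The control carries floxed β-catenin (b-cateninfl/fl) and no Cre, although another label calls its strain and genotype wild type. The mutant is Osr2-Cre;b-cateninfl/fl, in which a recombinase driven by Osr2 deletes the floxed alleles, so both groups share the floxed allele. Osr2 is known from palatal mesenchyme, and cells that never expressed it keep β-catenin in the mutant. The labels give replicates 1, 2 and 3 for the control and 5, 6 and 7 for the mutant. They do not say whether a library is 1 embryo or a pool, so the p-values measure only the spread between these libraries.

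Smooth muscle cells wrap the larger vessels and build contractile filaments from their own isoforms of actin, myosin and calponin. Transcription of these genes is known to depend on serum response factor, which binds a DNA element called the CArG box, and on its coactivator myocardin, encoded by Myocd. Pericytes sit on capillaries beneath the endothelium and carry few contractile filaments. They are recognised by the signalling regulator Rgs5, the surface proteoglycan NG2 (Cspg4) and an ATP-sensitive potassium channel whose pore and regulatory subunit are encoded by Kcnj8 and Abcc9. Embryonic skeletal muscle also makes some smooth muscle proteins for a time, smooth muscle actin among them.

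The CArG box has 10 letters. The sequence before the gene start is shown for the contractile genes in which the box, or a version with 1 letter off, was found. The RefSeq promoter table (GRCm38.p6) had a window for 7 of the 10 genes, and the 250 bases before each start were searched. Tagln, Myh11 and Myocd had no window and were not searched, so their absence below is not a negative result. The pattern reads the same on both strands. A CArG box was found in 1.47% of 32851 windows, and a CArG box or a version with 1 G or C among its 6 middle letters in 8.59%. Among the members, Myl9 held a box and Acta2 held only the version with 1 G or C, at 2 places. The remaining 5 (Cnn1, Rgs5, Cspg4, Abcc9 and Kcnj8) held neither. Capitals mark the 10 letters of the box, or of the version with 1 G or C, in 30 bases read 5′ to 3′. Actc1, the cardiac actin gene that embryonic skeletal muscle expresses, is shown for comparison. The Myl9 line and the second Actc1 line show a CArG box, and the other lines show the version.
Acta2, chr19:34255438-34255467, minus strand: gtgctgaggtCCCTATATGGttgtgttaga
Acta2, chr19:34255388-34255417, minus strand: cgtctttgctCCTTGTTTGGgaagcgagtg
Myl9, chr2:156775293-156775322, plus strand: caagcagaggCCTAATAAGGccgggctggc
Actc1, chr2:114053031-114053060, minus strand: ctccctagctCCCTATATGGccattgctct
Actc1, chr2:114052903-114052932, minus strand: gctaaggcgaCCAAATAAGGcaaggtggca
The first Acta2 site and the first Actc1 site, both the version with 1 G or C, have the same 10 letters. Myl9 has a further version with 1 G or C and Actc1 has 2 more. A match is a description of the letters and not a measured binding site, and the GENCODE start of Acta2 lies upstream of both of its sites.

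Values are CPM, the reads of a gene scaled to a common library total, and log2 changes were computed on log2(CPM + 1). A gene was called changed at an adjusted p below 0.05 in limma over all genes. Between 10019000 and 15089000 reads were counted per library, as estimated from the step between low values, and 3 reads corresponded to 0.199 to 0.299 CPM. Ctnnb1, the floxed gene, averaged 718 ± 59.0 CPM in control libraries and 599.8 ± 29.1 CPM in mutant libraries (SD, n = 3 each; log2 change -0.26 ± 0.10 SE, adjusted p = 0.183). Osr2 fell from 46.9 ± 11.2 to 16.1 ± 3.22 CPM (adjusted p = 0.0285), a call lost under 7 of 13 alternatives. The mesenchymal markers Prrx1, Twist1 and Shox2 were present in every library. Of the smooth muscle markers Acta2, Tagln and Myl9 were well above the floor, whereas Cnn1 and Myocd rested on about 7 to 23 reads in a library. The libraries of control replicate 3 and mutant replicate 7 held Xist at 1188 and 2054 CPM, and the other 4 at 13.1 to 17.3 CPM.

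One of the 10 genes was called changed, Acta2, which was lower in the mutant. The share of all genes called lower was 0.283%. A further 3 contractile genes, Myl9, Myh11 and Tagln, had lower values with an unadjusted p below 0.05 in limma but did not pass, and none of the 4 pericyte genes had such a p. That limit was passed in the lower direction by 8.07% of all genes and in the higher direction by 13.4%. The median log2 change was -0.74 over the contractile genes and -0.26 over the pericyte genes, against 0.04 over all genes. The groups did not overlap for Acta2, Tagln and Myl9, each lower in the mutant, and groups apart in that direction were found for 10.8% of all genes, against 17.1% in the higher direction, which no member showed. The authors' deposited filtered table, made by a filter not given in the sources used here, held Acta2, Tagln, Myh11 and Myl9 of the 10, and 11.1% of all genes. In bulk tissue fewer cells of a type and less RNA per cell cannot be told apart.

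**Figure D1:**
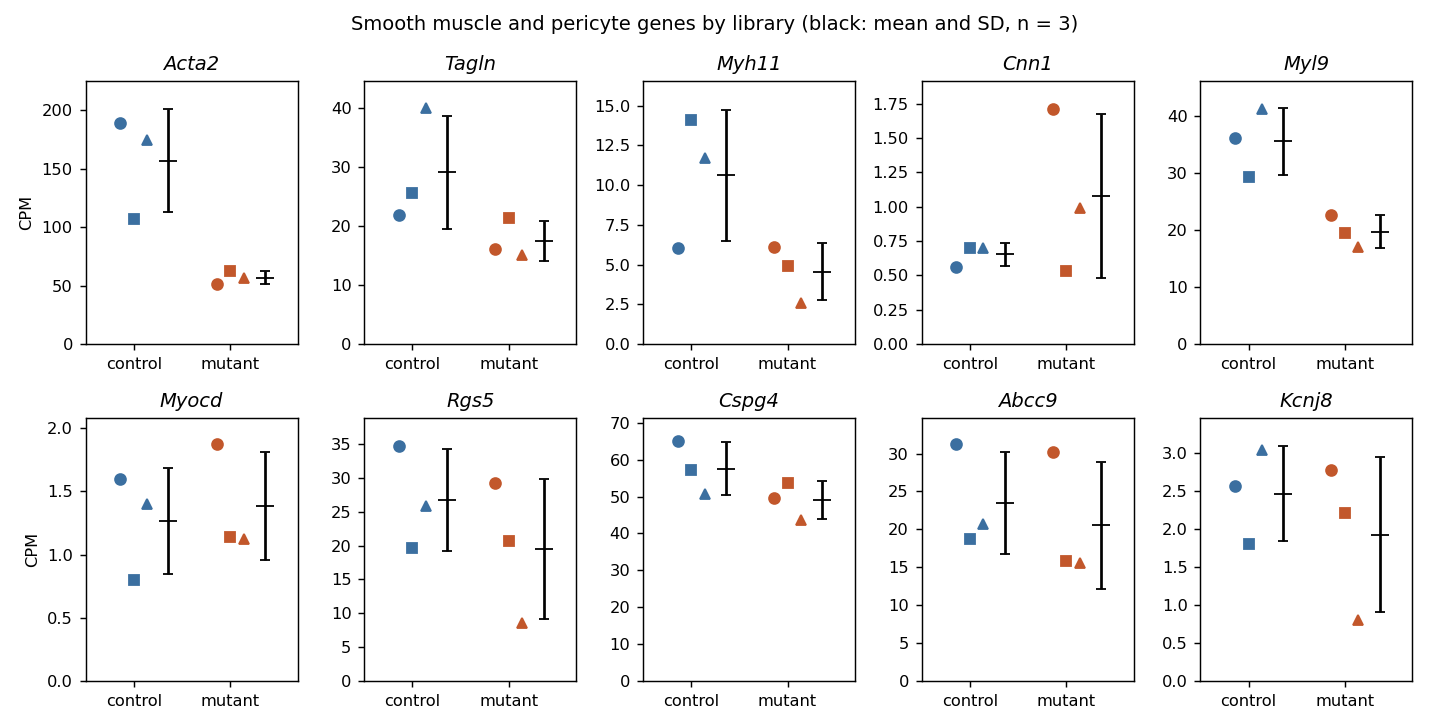
CPM of the 10 genes in each library (vertical axes from 0), with control in blue and mutant in orange; circles, squares and triangles are replicates 1, 2 and 3 or 5, 6 and 7, and black marks give the mean and SD. Acta2, Tagln and Myl9 have every mutant library below every control library, while the pericyte genes overlap, and mutant replicate 7 is the lowest library for all 4 pericyte genes and for Tagln, Myl9 and Myh11.

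Acta2, smooth muscle α-actin (chromosome 19, 34241090 to 34255590, GRCm38), measured 189, 107 and 174 CPM in control replicates 1, 2 and 3. In mutant replicates 5, 6 and 7 it measured 51.5, 62.3 and 56.5 CPM. Each mutant library lay well below the lowest control, and the mutant libraries spread far less than the controls. Mean Acta2 fell from 157 ± 43.9 CPM to 56.8 ± 5.42 CPM (SD, n = 3 each). On the log2 scale this was -1.41 ± 0.20 (SE), the 95% interval ran from -1.86 to -0.97, and the adjusted p was 0.0296 in limma. Acta2 stayed past the threshold without control replicate 2 (log2 change -1.67, adjusted p = 0.00872). It lost its call without any 1 of the other libraries, control replicates 1 and 3 and mutant replicates 5, 6 and 7 (log2 change -1.48 to -1.26, adjusted p = 0.0754 to 0.133). It also lost its call with sex as a covariate (adjusted p = 0.0570) and with a prior variance without trend (0.0758).

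Skeletal muscle genes moved in the same direction as Acta2 and were measured beside it. All 28 genes of the skeletal muscle list had lower values at an unadjusted p below 0.05 in limma, against 8.07% of all genes. Of the 28, 12 were called lower, against 0.283% of all genes, and the list's median log2 change was -1.14. The list was chosen with earlier results of these data known. None of the 28 was at 0 in a library. Their summed level was 8547 to 18026 CPM in control and 5689 to 7047 CPM in mutant. Control replicate 2 was the lowest control both in this sum and in Acta2, and also in Myl9, Myocd, Rgs5, Abcc9 and Kcnj8. The part of skeletal muscle in the Acta2 result was not tested. The 12 that fell were the regulators Pax7, Myog and Myod1, the contractile genes Tnni1, Tnnc1, Myl4, Acta1 and Actc1, the intermediate filament gene Des, the calcium channel gene Ryr1, the cadherin gene Cdh15 and the acetylcholine receptor gene Chrng. Without any 1 of control replicates 1 and 3 and mutant replicates 5, 6 and 7, 0 of them passed, while 27 or 28 of the 28 kept an unadjusted p below 0.05 in limma; without control replicate 2, 24 passed.

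The genes nearest to Acta2 in their pattern over the 6 libraries were skeletal muscle genes as well. Likeness was measured as the root mean square difference of log2(CPM + 1) after centring each gene, among the 6562 genes whose mean was no lower than that of Acta2 divided by 4. The 3 nearest were Actc1 (0.09), Myog, a regulator of myoblast differentiation (0.09), and Tnni1, slow troponin I (0.09). Actc1 reached 472, 234 and 364 CPM in control against 119, 145 and 121 CPM in mutant, the same order of the controls as Acta2. The ratio of Acta2 to Actc1 within a library was 0.401, 0.457 and 0.479 in control and 0.431, 0.429 and 0.467 in mutant. The ratio overlapped between the groups, with means of 0.446 ± 0.0399 and 0.442 ± 0.0213 (SD, n = 3 each), and needs no scaling between libraries. Actc1 is the nearest gene to Acta2 over these same 6 libraries, so a nearly constant ratio follows from that choice. The ratio is therefore no separate result on Acta2.

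The actins of muscle are close relatives, so the transcripts were compared for stretches that reads could share. The first 60 coding bases from GENCODE vM21 are printed because they show how the genes differ, with capitals at the 19 positions where the 3 are not all alike.
Acta2: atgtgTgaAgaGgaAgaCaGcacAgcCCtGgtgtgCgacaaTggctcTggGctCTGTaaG
Acta1: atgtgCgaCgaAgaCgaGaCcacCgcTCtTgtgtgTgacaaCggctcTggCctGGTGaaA
Actc1: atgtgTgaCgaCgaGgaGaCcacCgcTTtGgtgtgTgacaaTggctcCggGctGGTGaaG
Over the 1131 coding bases Acta2 was identical to Acta1, skeletal α-actin, at 85.4% of positions and to Actc1 at 82.6%. The longest run of bases shared with the Acta2 transcript was 29 for Acta1, 23 for Actc1 and 29 for Actg2, the smooth muscle γ-actin gene. No stretch of 50 bases of Acta2 was found in any of the 3 (0%). Read length and the treatment of reads with several matches were facts not given in the sources used here.

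Myl9 encodes the regulatory light chain of smooth muscle and non-muscle myosin (chromosome 2, 156775420 to 156781658). Its level was 36.2, 29.3 and 41.1 CPM in control replicates 1 to 3, against 22.7, 19.5 and 17.0 CPM in mutant replicates 5 to 7. The groups were apart, with the lowest control at 29.3 CPM and the highest mutant at 22.7 CPM. Means were 35.5 ± 5.91 and 19.7 ± 2.85 CPM (SD, n = 3 each; log2 change -0.82 ± 0.15, 95% interval -1.17 to -0.47), and with an adjusted p of 0.0578 in limma it did not pass the threshold. It passed without control replicate 2 (log2 change -0.94, adjusted p = 0.0355), where 452 of all genes passed, against 105 with all libraries. Without any 1 of the other libraries its adjusted p was 0.086 to 0.234 in limma. The 95% intervals here and below are not adjusted for the number of genes.

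Tagln encodes transgelin, an actin-binding protein of smooth muscle (chromosome 9, 45929619 to 45936058). Its level was 21.9, 25.6 and 40.04 CPM in control replicates 1 to 3, against 16.1, 21.5 and 15.2 CPM in mutant replicates 5 to 7. The highest mutant library, replicate 6, came close to the lowest control, replicate 1. The log2 change was -0.67 ± 0.22 (95% interval -1.17 to -0.17, adjusted p = 0.144 in limma), and -0.42 without control replicate 3, the library with the highest value. Tagln overlaps Pcsk7 and the antisense gene Gm48529 on the opposite strand. How the counting treated strand is unknown here, so reads of these genes cannot be told apart where they overlap.

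Myh11 encodes the smooth muscle myosin heavy chain, held to be the most specific of the contractile markers (chromosome 16, 14194535 to 14291372). Its level was 6.08, 14.1 and 11.7 CPM in control replicates 1 to 3, against 6.11, 4.94 and 2.58 CPM in mutant replicates 5 to 7. Control replicate 1 lay among the mutant libraries, so the groups overlapped. The log2 change was -1.05 ± 0.33 (95% interval -1.81 to -0.29, adjusted p = 0.133 in limma). Within the 3 controls, replicate 1 had the highest skeletal muscle sum and the lowest Myh11, an order unlike that of Acta2. That order rests on 3 libraries with 76 to 150 reads of Myh11, and its cause was not tested. The 3 genes nearest in pattern to Myh11, among 13378, were C1qtnf3 (root mean square difference 0.14), Mmp12, a macrophage metalloproteinase (0.16), and Tmem132e (0.21).

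Cnn1 and Myocd were close to the limit of detection. Cnn1, calponin 1 (chromosome 9, 22099216 to 22109630), stood at 0.560, 0.699 and 0.701 CPM in control, against 1.71, 0.532 and 0.994 CPM in mutant, about 7 to 21 reads. Mutant replicate 5 was the highest library and mutant replicate 6 the lowest, so no direction can be read from the log2 change of 0.29 ± 0.24 (95% interval -0.24 to 0.83, adjusted p = 0.509 in limma). Myocd, the coactivator of serum response factor (chromosome 11, 65176561 to 65269989), stood at 1.60, 0.799 and 1.40 CPM in control, against 1.87, 1.14 and 1.13 CPM in mutant. Its groups overlapped as well (log2 change 0.07 ± 0.23, 95% interval -0.44 to 0.59, adjusted p = 0.878), and the sign turned without control replicate 2 (-0.08) or mutant replicate 5 (-0.07).

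**Figure D2:**
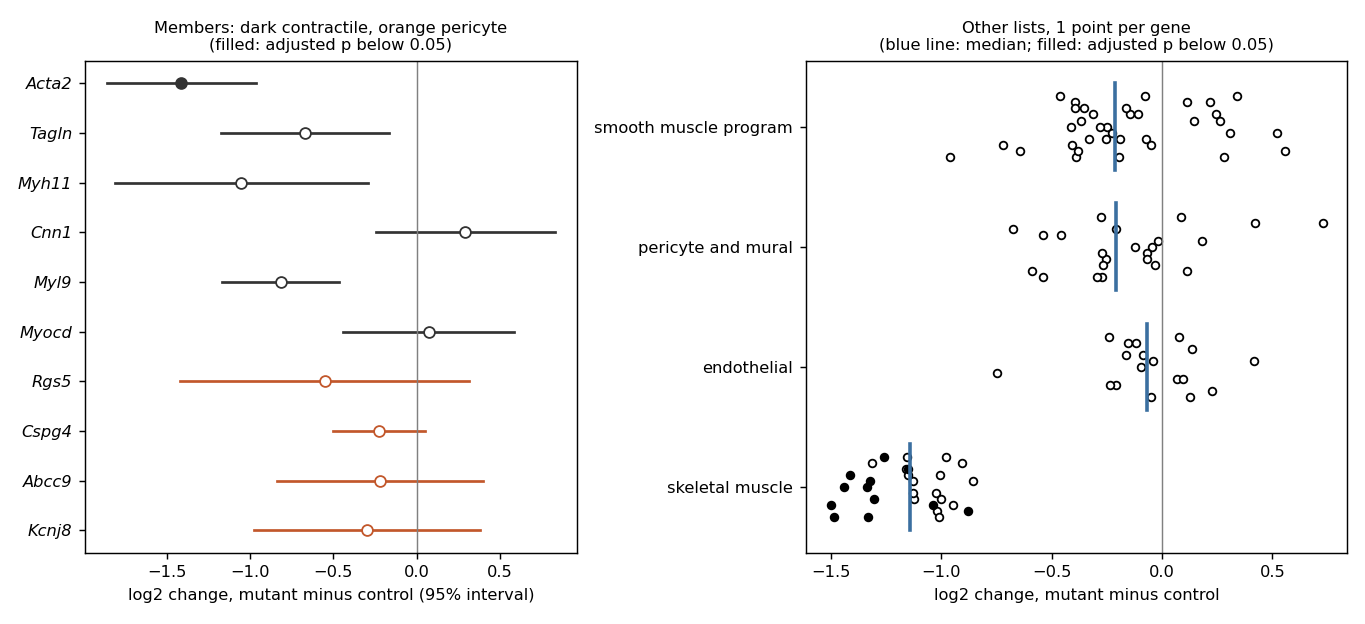
Log2 change, mutant minus control, for the 10 genes with 95% intervals (left) and for each gene of 4 other lists (right, 1 point per gene, blue lines for medians); filled points passed an adjusted p of 0.05 in limma. Acta2 is the single filled member, at -1.41, and the skeletal muscle list, with a median of -1.14, lies lower than the endothelial list, with a median of -0.07.

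The pericyte genes overlapped between the groups, and the size of each difference turned on single libraries. Mutant replicate 7 was the lowest of the 6 libraries for all 4 of them, and also for Tagln, Myl9 and Myh11. This was not particular to these genes. The same library was lowest for the mesenchymal markers Prrx1 (252 CPM) and Shox2 (33.8 CPM), whereas Twist1 and Osr2 were lowest in mutant replicate 5. Rgs5 encodes a regulator of G protein signalling that marks pericytes (chromosome 1, 169655501 to 169695813). Its level was 34.7, 19.7 and 25.9 CPM in control replicates 1 to 3, against 29.2, 20.8 and 8.55 CPM in mutant replicates 5 to 7. Mutant replicate 7 stood well below the other 5 libraries, where the mutants (20.8 and 29.2 CPM) fell within the control range. The log2 change was -0.55 ± 0.38 (95% interval -1.42 to 0.32, adjusted p = 0.436 in limma). It was -0.08 without mutant replicate 7 and -0.91 without mutant replicate 5.

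Cspg4, the proteoglycan NG2 (chromosome 9, 56865033 to 56899870), had the smallest spread within each group, relative to its mean, of the 4. Its level was 65.0, 57.1 and 50.6 CPM in control replicates 1 to 3, against 49.6, 53.7 and 43.6 CPM in mutant replicates 5 to 7. Mutant replicate 6 lay above the lowest control. The log2 change was -0.23 ± 0.12 (95% interval -0.50 to 0.05, adjusted p = 0.320 in limma). It was -0.14 without control replicate 1, -0.15 without mutant replicate 7 and -0.31 without control replicate 3.

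Kcnj8 and Abcc9 encode the pore (Kir6.1) and the sulfonylurea receptor (SUR2) of the potassium channel of vascular smooth muscle and pericytes. They lie next to each other on chromosome 6, on the same strand, with Kcnj8 at 142564837 to 142571614, Abcc9 at 142587862 to 142702315 and 16.2 kb between them. Abcc9 stood at 31.2, 18.7 and 20.6 CPM in control, against 30.2, 15.8 and 15.5 CPM in mutant. One library of each group, control replicate 1 and mutant replicate 5, stood near 30 CPM and the other 4 near 15 to 21 CPM. Its log2 change was -0.22 ± 0.27 (95% interval -0.84 to 0.40, adjusted p = 0.674 in limma), and it was -0.01 without control replicate 1 and -0.52 without mutant replicate 5. Kcnj8 stood at 2.56, 1.80 and 3.04 CPM in control, against 2.77, 2.20 and 0.795 CPM in mutant, and mutant replicate 7 was again the lowest. Its log2 change was -0.30 ± 0.30 (95% interval -0.98 to 0.38, adjusted p = 0.599) and 0.02 without that library. Abcc9 overlaps a non-coding antisense gene, 5330439B14Rik.

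The endothelial genes, which mark the other cell type of the vessel wall, were measured beside the pericyte genes. None of 18 endothelial genes passed in limma, against 0.479% of all genes. Only 1 had an unadjusted p below 0.05 (Pdgfb, lower), against 8.07% of all genes in that direction. The next smallest p belonged to Sox17 (log2 change 0.42, adjusted p = 0.334) and Eng (-0.21, adjusted p = 0.433). The median log2 change of the 18 genes was -0.07. Their summed level was 318 to 486 CPM in control and 362 to 503 CPM in mutant, and none was at 0 in a library. The lowest mutant library in this sum was replicate 7, at 362 CPM, which lay above the lowest control. The ratio of Rgs5 to Pecam1, an endothelial adhesion molecule, was 0.816, 0.466 and 0.902 in control and 0.598, 0.515 and 0.250 in mutant. That ratio overlapped between the groups and was lowest in mutant replicate 7. The ratio of Cspg4 to Pecam1 was 1.53, 1.35 and 1.77 in control and 1.015, 1.33 and 1.28 in mutant, without overlap (exact permutation test, two-sided, p = 0.1, the smallest that 3 against 3 allows).

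In all, 9 ratios of this kind were computed, chosen after the values were seen, and none had an adjusted p below 0.3 in the exact permutation test. Those of Tagln and Myl9 to Acta2 did not overlap either. Tagln to Acta2 was 0.116, 0.239 and 0.230 in control and 0.313, 0.344 and 0.268 in mutant. Myl9 to Acta2 was 0.191, 0.274 and 0.236 in control and 0.440, 0.312 and 0.300 in mutant (exact permutation p = 0.1 for each). Relative to Acta2, both genes were thus higher in each mutant library than in any control. Acta2 fell the most of the 10 genes (log2 change -1.41, against -0.67 for Tagln and -0.82 for Myl9). The rise of these ratios restates that difference. With 3 against 3 libraries the smallest p is 0.1, so no ratio could pass the threshold of 0.05. The ratio of Myh11 to Acta2 overlapped (0.0769 ± 0.0505 and 0.0812 ± 0.0365, SD, n = 3 each).

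**Figure D3:**
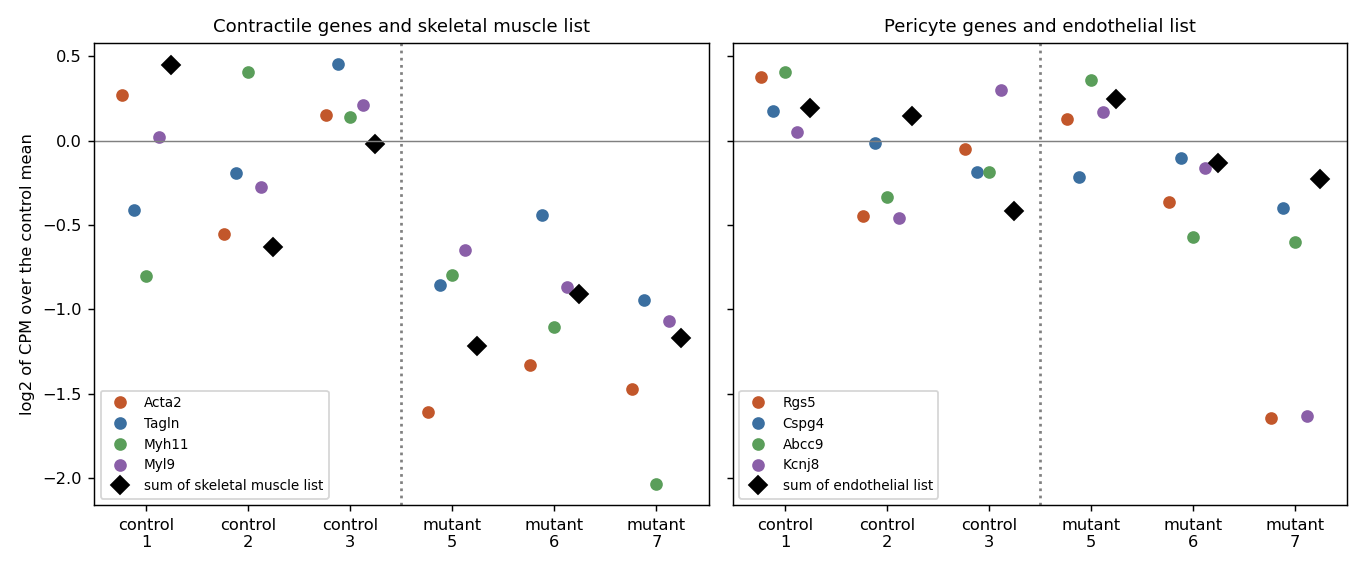
Log2 of CPM over the control mean (vertical axis) in each library, for contractile genes with the summed skeletal muscle list (left) and pericyte genes with the summed endothelial list (right, black diamonds). Acta2 and the skeletal muscle sum are lower in each mutant library than in any control. Replicate 2 is their lowest control, and also that of Myl9, Rgs5, Abcc9 and Kcnj8. All 4 pericyte genes, like Tagln, Myl9 and Myh11, are lowest in mutant replicate 7.

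Levels of different genes were compared per kilobase of exon, from GENCODE vM21 lengths. In control the highest was Acta2 at 71.4 ± 19.98 CPM per kb, followed by Myl9 at 30.6 ± 5.08 and Tagln at 14.7 ± 4.82 (SD, n = 3). Rgs5 (5.88 ± 1.66) and Cspg4 (4.83 ± 0.605) came next with overlapping ranges, then Abcc9 (2.81 ± 0.805). Myh11 (1.40 ± 0.540) and Kcnj8 (0.967 ± 0.245) overlapped, as did Cnn1 (0.239 ± 0.0295) and Myocd (0.197 ± 0.0650) at the bottom. In the mutant the means of the first 6 kept this order, led by Acta2 at 25.8 ± 2.47 and Myl9 at 16.9 ± 2.45 CPM per kb. Rgs5 and Cspg4 again overlapped, and in mutant replicate 7 Rgs5 (1.88) lay below Cspg4 (3.65). The last 4 overlapped each with the next, with Kcnj8 (0.755 ± 0.399) above Myh11 (0.598 ± 0.236). The distance of Acta2 from Myl9 was thus smaller in the mutant, where their ranges were still apart.

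**Figure D4:**
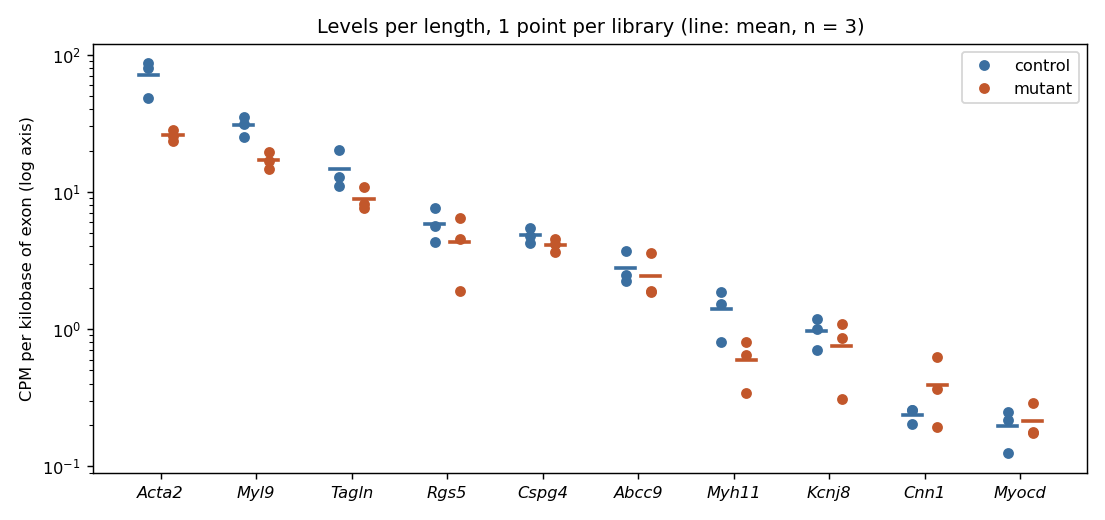
CPM per kilobase of exon on a log axis for each of the 10 genes, control in blue and mutant in orange, 1 point per library with a line at the mean. The order of the means from Acta2 (71.4 in control, 25.8 in mutant) through Myl9, Tagln, Rgs5 and Cspg4 to Abcc9 is the same in both groups. The ranges of Rgs5 and Cspg4 overlap in each group.

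The wider smooth muscle program was measured with 36 other genes of the contractile apparatus and its regulators. None passed over all genes in limma, and 15 had lower and 4 higher values at an unadjusted p below 0.05, against 8.07% and 13.4% of all genes. The 4 of 36 with higher values were close to the share over all genes, so nothing is read from them. The list's median log2 change was -0.21, against 0.04 over all genes. The smallest p belonged to Mylk, the kinase that phosphorylates myosin light chains, which was higher in each mutant library (38.7, 44.5 and 37.3 CPM in control, 59.8, 59.0 and 59.2 in mutant; log2 change 0.56 ± 0.10, adjusted p = 0.0521). It passed without control replicate 2 (log2 change 0.63, adjusted p = 0.0286). Without any 1 of the other libraries the adjusted p of Mylk was 0.107 to 0.228 in limma. Synpo2, an actin-bundling protein, measured 41.9 ± 3.77 and 26.5 ± 2.87 CPM (log2 change -0.65, adjusted p = 0.0572). Its adjusted p in limma was 0.0440 without control replicate 2 and 0.111 to 0.163 without any 1 of the others. Csrp1, a LIM protein of smooth muscle, measured 70.6 ± 12.3 and 42.1 ± 3.04 CPM (log2 change -0.72, adjusted p = 0.0572). Among the transcriptional regulators, Srf measured 39.0 ± 4.86 and 31.8 ± 2.17 CPM (log2 change -0.28, adjusted p = 0.220), and its coactivators Mrtfa (log2 change -0.05) and Mrtfb (0.11) overlapped between the groups. Actg2 measured 0.928 to 4.36 CPM over the 6 libraries.

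Of 23 other pericyte and mural genes measured, 0 passed in limma, and 3 had lower and 1 higher values at an unadjusted p below 0.05, against 8.07% and 13.4% of all genes. These counts are too small to set the list apart from all genes, and its median log2 change was -0.21. P2ry14, a receptor for UDP sugars, measured 8.06 ± 1.47 CPM in control, against 13.997 ± 2.31 CPM in mutant (log2 change 0.73, adjusted p = 0.0903). S1pr3, a sphingosine-1-phosphate receptor, measured 93.4 ± 28.4 and 56.3 ± 3.86 CPM (log2 change -0.67, adjusted p = 0.116), and Angpt1, the ligand of the endothelial receptor Tek, 46.2 ± 4.04 and 32.3 ± 9.15 CPM (log2 change -0.54, adjusted p = 0.162, and -0.31 without mutant replicate 7). Pdgfrb, a receptor gene used as a mural cell marker though not shown to be specific to them here, measured 82.9 ± 21.005 and 74.5 ± 7.37 CPM (log2 change -0.12, adjusted p = 0.733). Notch3 measured 113 ± 29.7 and 91.6 ± 1.66 CPM (adjusted p = 0.380). The 3 genes nearest in pattern to Rgs5, among 11476, were Lepr (root mean square difference 0.20), Grik3 (0.24) and Itih5 (0.24), a wider distance than that of Acta2 from its nearest genes.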

How the data were processed

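RNA of 3 control and 3 mutant soft palate libraries was sequenced by the authors. The submitters' processing notes name STAR, without a version, and mm10. Values deposited by the authors are CPM to which 0.0001 had been added, as the values show, and this constant was removed. The counting tool and gene models were not given in the sources used here, and 0 columns of per-sample values were left out. Estimated from the step between low values, 63.7 to 68.1% of values under 2 CPM were whole reads within 0.02 of a read, so counts were not recovered. Mutant was compared with control in limma 3.58.1 (R 4.3.3), with an intensity trend, on log2(CPM + 1) over 21938 genes, with no filter and Benjamini-Hochberg adjustment. Intervals cover 95%. No pair of libraries correlated above 0.988. The fit was tested on simulated data in which all genes had the same relative spread and changed genes lay at or above the median level. That test does not cover members with a wider spread or a lower level. Positions and exon lengths came from GENCODE vM21 (GRCm38), where all 121 genes of the lists matched by symbol. Members and lists were chosen with earlier results of these data known. Named were the 10 members, Ctnnb1, Osr2, every called gene of each other list or else its 3 smallest p, and the 3 nearest patterns of Acta2, Myh11 and Rgs5, passing over clone or model names; other genes (Srf, Mrtfa, Mrtfb, Actg2, Pdgfrb, Notch3, Pecam1, Kcnj11 and Abcc8) and all ratios were chosen after their values were seen. Sex was read from Xist (above 100 CPM). Alternatives changed the pseudocount, a minimum level, library scaling, the prior variance, the threshold, sex as a covariate and each library.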

Additional observations from a re-analysis of the deposited data

How the results depend on the processing

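No paired analysis was possible because the groups share no replicate numbers. Among all genes 105 were called, 43 higher and 62 lower, and 130 (66 higher and 64 lower) with libraries rescaled to a common median, which moved libraries by -0.02 to 0.02 on the log2 scale. With robust prior variance 174 were called, at a threshold of 0.1 on the adjusted p 999 (622 higher and 377 lower, the opposite balance), and 0 with a prior variance without trend or with sex as a covariate (4516 and 4356 with an unadjusted p below 0.05 by limma). Under these 4 settings in the same order the members called were 1, 2, 0 and 0 and the skeletal muscle genes 11, 23, 0 and 0 (12 in the reported fit). The smooth muscle program gave 3, 5, 0 and 0 calls (13 and 18 in limma at unadjusted p below 0.05 for the last pair), and 1 with rescaled libraries or with only genes of at least 1 CPM. The pericyte and mural list gave 1 call at the threshold of 0.1. Acta2 (log2 change -1.41, which neither setting can move, as sexes are balanced between the groups) lost its call without trend or with sex as a covariate, and Myl9 (-0.82) passed at 0.1. Leaving out each library gave 0 to 452 called genes (254 higher and 198 lower at the most, without control replicate 2), 0 to 2 members, 0 to 4 of the smooth muscle program and 0 to 24 skeletal muscle genes. Log2 changes then ranged from -1.67 to -1.26 for Acta2, -0.94 to -0.71 for Myl9, -0.91 to -0.08 for Rgs5, -0.31 to -0.14 for Cspg4, -0.08 to 0.18 for Myocd and -0.51 to 0.02 for Kcnj8; Myocd turned without control replicate 2 (-0.0846) or mutant replicate 5 (-0.0698), Kcnj8 without mutant replicate 7 (0.0213). The other members kept their direction under every alternative run. Cnn1 gave no value with the minimum of 1 CPM. The cause of these shifts was not tested. Among the members, depth limits Cnn1, Myocd and Kcnj8 most, at 7 to 39 reads a library.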

Other observations

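The second pair of ATP-sensitive potassium channel genes was also measured. Kcnj11 (Kir6.2) measured 2.32, 1.30 and 1.95 CPM in control against 1.06, 0.912 and 1.19 CPM in mutant, so each mutant library lay below each control (log2 change -0.46 ± 0.21, adjusted p = 0.239 in limma). Its level was about as low as that of Kcnj8, so few reads stand behind it. For Kcnj11, as for Pdgfb below, groups apart in that direction were shared by 10.8% of all genes. Abcc8 (SUR1) measured 1.98 ± 0.440 and 1.62 ± 1.21 CPM (SD, n = 3 each; adjusted p = 0.645), with mutant replicate 5 the highest library. Pdgfb, the endothelial ligand that recruits mural cells, stood at 7.20, 10.8 and 7.09 CPM in control, against 4.97, 4.03 and 4.51 CPM in mutant. Its groups were apart (log2 change -0.75 ± 0.20, adjusted p = 0.101 in limma), while its receptor gene Pdgfrb overlapped between the groups. These genes were chosen after their values were seen.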
